A study of Mus musculus with 6 samples.

Results

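The MYC, MAX and MXD network is a set of transcription factors that meet on the same DNA element, and it was followed here through 10 genes, namely Myc, Mycn, Max, Mxd1, Mxd3, Mxd4, Mxi1, Mnt, Mga and Mlx. The members were taken by gene symbol from a table of 33924 gene rows, and they were chosen with earlier results of these data known. All 10 had a row and all 10 passed the filter on low counts, among 13406 genes tested. Mycn passed through the LSK-derived libraries alone, since it had 0 counts elsewhere.

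RNA sequencing compared mouse acute myeloid leukaemias that began in LSK cells, marrow cells that lack lineage markers, carry Sca-1 and Kit and are rich in stem cells, with leukaemias that began in granulocyte-macrophage progenitors (GMP), which are committed to the myeloid lineage. Cells of both groups had been transduced with a retrovirus carrying MLL-AF9, a leukaemic fusion of the KMT2A and MLLT3 genes, grown in vitro, and GFP-positive cells were then transplanted with wild-type support marrow into lethally irradiated C57BL/6 mice. Leukaemia cells came from the marrow of moribund recipients and were then cultured with IL-3, IL-6 and SCF. Each group had 3 libraries, named here by the numbers in their titles (LSK 44, LSK 45 and LSK 46 form the LSK group, and GMP 5, GMP 11 and GMP 19 the GMP group). Whether each library of a group stands for its own transduction or mouse is not in the labels, so each p-value is set against a spread among libraries that may be technical. In bulk RNA fewer cells that express a gene cannot be told apart from less RNA per cell.

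MYC and its paralogue MYCN activate genes for growth, ribosome synthesis and division, and they bind the E box only as a dimer with MAX. MXD1, MXD3, MXD4, MXI1 and MNT compete for MAX and repress the same elements by recruiting SIN3 and histone deacetylases. MGA, the largest of these proteins, also pairs with MAX and serves in a Polycomb complex, while MLX takes the place of MAX for some MXD proteins, MNT and the glucose-sensing MONDO proteins. In blood, MYC falls and MXD1 appears as myeloid cells mature.

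Total counts per library ran from 16640929 to 33885428. All 8 myeloid identity genes had counts in every library, but 7 of them had negative log2 fold changes (median -0.57). Mpo went the other way (log2 fold change 1.87, adjusted p = 0.247). Of the 8, 2 were called lower in the LSK group, namely Csf2rb, a cytokine receptor subunit (2.08-fold, adjusted p = 0.00498), and Ptprc, the leukocyte antigen CD45 (1.597-fold, adjusted p = 0.00632). Over all tested genes 25.7% were called, 11.8% higher and 13.9% lower in the LSK group. These shares are to be set beside each count of called markers here. Markers of other cell types also moved between the groups, and their part in the results on the network was not tested. The 12 erythroid and megakaryocyte markers summed to 25.6 to 199 CPM (counts scaled to library size) in the LSK group and 2.32 to 13.5 CPM in the GMP group, with 1 of 6 tested called higher (the globin gene Hbb-b2). The 10 mature neutrophil markers summed to 49.3 to 180 CPM in the LSK group and 18.98 to 584 CPM in the GMP group, highest in GMP 19. Most of that sum in the LSK group was Mmp8 (101, 173 and 40.9 CPM, against 1.76, 18.3 and 29.8 CPM in the GMP group). The median log2 fold change of the 7 tested markers was -2.73, and S100a9 and Ngp were called lower (adjusted p = 0.0476 and 0.0490). S100a9 was at 195 CPM in GMP 19, against 5.37 CPM in GMP 5 and 20.1 CPM in GMP 11. No marker of that list was called lower with no filter, with limma voom, or in the fits without a library other than the one without GMP 5. Of 7 tested mast cell, basophil and eosinophil markers, Epx, Prg2 and Mcpt8 were called higher and Hdc lower, with Tpsab1 at 0 throughout, and the 10 markers of that list summed to 116 to 181 CPM in the LSK group and 88.0 to 339 CPM in the GMP group. The 8 B cell markers summed to 15.1 to 22.2 CPM in the LSK group and 4.51 to 13.9 CPM in the GMP group, with Cd79b called higher, Igll1 called lower and Ms4a1 and Pax5 at 0 throughout. The 8 T and NK cell markers, mostly Lck, summed to 6.84 to 7.91 CPM in the LSK group and 7.12 to 7.42 CPM in the GMP group, with Klrb1c called higher and Cd3e, Ncr1 and Trbc1 at 0 throughout. Of 3 tested stroma and endothelium markers Pdgfrb was called lower, and of 7 tested monocyte and macrophage markers Mrc1 was called higher. The Mrc1 call (adjusted p = 0.0494) was lost in every fit without a library.

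The E box that the network reads is also found in the promoters of its own genes, which is why these stretches are shown. Promoter windows from RefSeq (GRCm38.p6), running from 250 bases before to 50 bases after an annotated start, were found for 9 of the 10 members, all but Myc. The canonical E box CACGTG, which reads the same on both strands, occurred in the windows of 4 of these 9 genes, Max, Mlx, Mnt and Mxd4, and in 8.09% of all 27025 genes in the reference table (7.15% of 32851 windows, as some genes have several). In the stretches below, each written 5′ to 3′ on the gene's strand, capitals mark the E box.
Max (chr12:76962226-76962271, minus strand): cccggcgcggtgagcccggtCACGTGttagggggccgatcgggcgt
Mlx (chr11:101087230-101087275, plus strand): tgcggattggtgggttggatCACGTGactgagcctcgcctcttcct
Mnt (chr11:74830781-74830826, plus strand): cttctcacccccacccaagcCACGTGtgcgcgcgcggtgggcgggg
Mxd4 (chr5:34187904-34187949, minus strand): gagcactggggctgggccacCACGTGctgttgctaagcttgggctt
The variant CACGCG, searched on both strands, was in the window of Mga and in 9.27% of all windows. Mycn, the member whose level differed most, had neither in its window. That window held the letters TTTGGCGC, the form of a site known for E2F factors, at 2 places, marked in capitals in the sequence below. This motif was searched on both strands, was chosen after the sequence was seen, and occurred in 0.514% of all windows.
Mycn (chr12:12941787-12942086, minus strand): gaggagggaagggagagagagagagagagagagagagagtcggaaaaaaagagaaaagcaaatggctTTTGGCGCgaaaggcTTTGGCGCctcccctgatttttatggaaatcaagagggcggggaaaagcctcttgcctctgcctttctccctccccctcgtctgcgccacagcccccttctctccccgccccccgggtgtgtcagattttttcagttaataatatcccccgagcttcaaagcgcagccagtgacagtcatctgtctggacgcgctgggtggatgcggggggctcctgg
A match describes the letters of the window and not a bound site.

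Of the 10 members, 2 were higher in LSK-derived leukaemias (Myc and Mycn), 2 were lower (Mlx and Mxi1) and 6 did not pass the quasi-likelihood test of edgeR (threshold 0.05 on the adjusted p). Over all tested genes, 25.7% were called, 11.8% higher and 13.9% lower in LSK-derived libraries, beside 4 of the 10 members. The 4 called members were also the ones whose groups did not overlap, against 45.4% of all tested genes with no overlap. Mycn is among these 4, but it passed the filter through the LSK-derived libraries alone. Its call and its lack of overlap are therefore described here and give no support to the count. The median log2 fold change of the members was 0.10, also with Mycn placed at its lower bound, beside 0.01 over all tested genes.

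**Figure D1:**
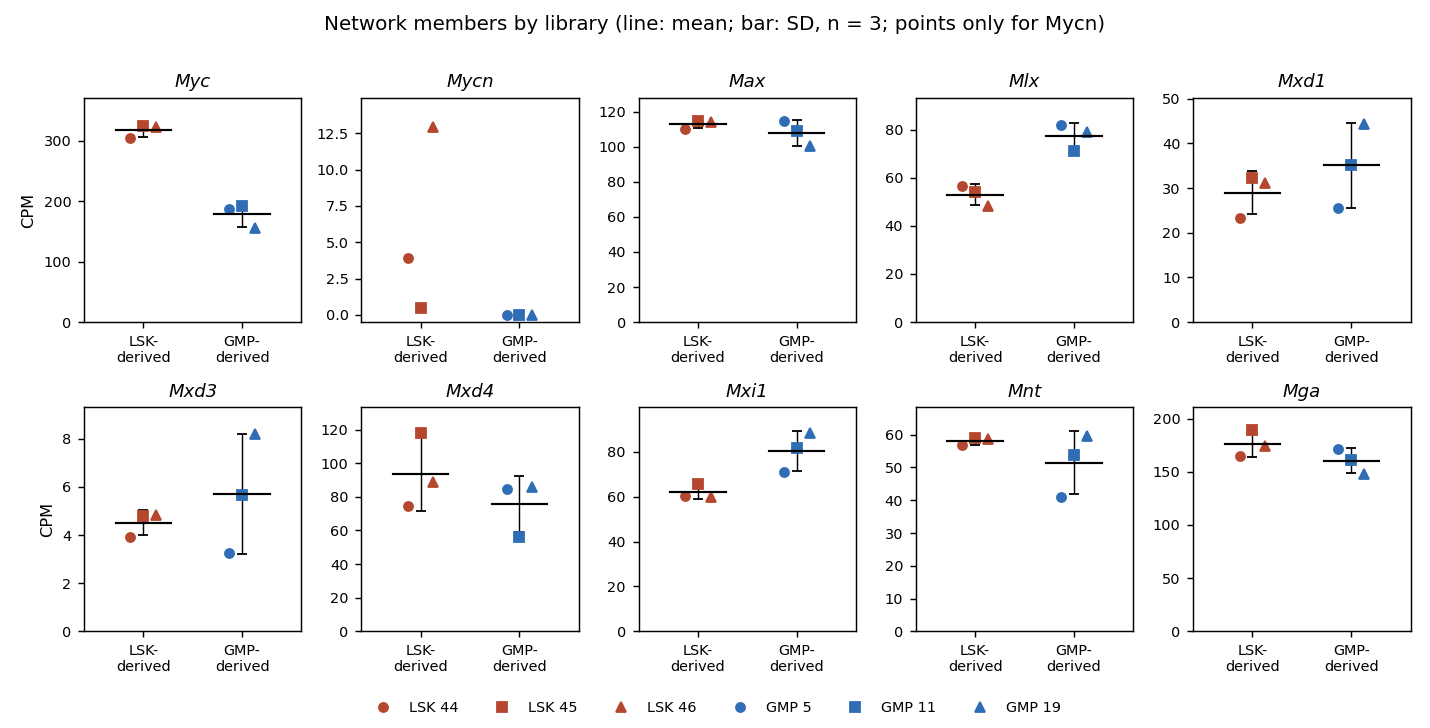
Level of each network member in CPM (vertical axis, from 0) in LSK-derived (left) and GMP-derived (right) libraries. Points are single libraries, lines are means and bars are SD over 3 libraries, with points alone for Mycn. Myc and Mycn lie higher and Mlx and Mxi1 lower in every LSK-derived library than in any GMP-derived one.

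Myc, the main activator of the network, reached 305 CPM in LSK 44, 324 CPM in LSK 45 and 323 CPM in LSK 46, against 188 CPM in GMP 5, 192 CPM in GMP 11 and 155 CPM in GMP 19. All LSK-derived libraries were close together and above all GMP-derived ones, among which GMP 19 was lowest. The difference was 1.78-fold (log2 fold change 0.83 ± 0.09, approximate SE, adjusted p = 0.00191). It was called in all 13 alternative fits, with log2 fold changes between 0.74 and 0.89 and adjusted p up to 0.0112. Pvt1, the noncoding RNA gene next to Myc, was not called, with 8.95, 8.79 and 6.46 CPM in LSK-derived libraries and 12.9, 9.53 and 7.36 CPM in the GMP group (log2 fold change -0.30 ± 0.24, adjusted p = 0.400). Its log2 fold change was -0.0723 without GMP 5, -0.16 without LSK 46 and -0.47 without GMP 19.

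Mycn, which is active in stem cells and early progenitors, had 65, 12 and 310 counts in LSK 44, LSK 45 and LSK 46, and 0 in each GMP-derived library. As levels these were 3.93, 0.471 and 12.9 CPM, so the LSK-derived libraries differed widely among themselves while none overlapped the other group. Set against a floor of 3 counts over the GMP-derived libraries pooled (0.0325 CPM), the level was 121-fold higher in LSK 44, 14.5-fold in LSK 45 and 397-fold in LSK 46. These folds allow for counting error in the pooled GMP-derived group only. They allow for none in the LSK-derived libraries, of which LSK 45 had 12 counts, and against the floor of a single GMP-derived library they would be smaller. The adjusted p was 0.0426, and the call was lost with no filter on low counts (0.193) and without LSK 44, LSK 46, GMP 5, GMP 11 or GMP 19 (0.0602 to 0.107), in a range from 4.75e-05 over the alternatives. The erythroid and megakaryocyte marker sum had the same order over the LSK-derived libraries, at 72.2, 25.6 and 199 CPM, and its part in the Mycn level was not tested.

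None of 3 genes beside Mycn was called higher by edgeR, DESeq2 or limma voom, with 0 higher at an unadjusted p below 0.05 too. Over all tested genes edgeR called 11.8% higher and 13.9% lower, so a count among 3 genes is too small to set apart from those shares. Ddx1, an RNA helicase gene often co-amplified with MYCN in human neuroblastoma, was at 275, 231 and 259 CPM in LSK-derived libraries and 274, 237 and 209 CPM in the GMP group (log2 fold change 0.09 ± 0.12, adjusted p = 0.623; its sign turned without GMP 19). Nbas, a gene for vesicle transport, was 1.33-fold lower, at 42.9 ± 4.69 CPM in the LSK group and 57.0 ± 1.92 CPM in the GMP group (SD, n = 3 each; adjusted p = 0.0203). That call was lost without LSK 45, LSK 46 or GMP 11 (adjusted p 0.0511 to 0.0833). Fam49a was at 1.90 ± 0.875 CPM in the LSK group and 1.94 ± 0.832 CPM in the GMP group, and its adjusted p was 0.976. By library, Nbas was at 48.1 CPM in LSK 44, 39.2 CPM in LSK 45 and 41.3 CPM in LSK 46. The order of single libraries was not tested. These are RNA levels, and whether the Mycn locus was gained in any library was not tested.

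Max, the obligate partner of MYC and of the MXD proteins, was at 110, 115 and 114 CPM in LSK-derived libraries, against 115, 109 and 100 CPM in the GMP group. The groups overlapped, and the log2 fold change was 0.06 ± 0.07 (adjusted p = 0.537). Its log2 fold change ran from 0.01 to 0.10 over the 13 alternative fits, a narrower range than for any other member.

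Mlx, the alternative partner, was at 56.7, 53.9 and 48.3 CPM in LSK-derived libraries, against 81.9, 71.3 and 78.8 CPM in the GMP group. Every LSK-derived library was below every GMP-derived one, a 1.46-fold difference (log2 fold change -0.55 ± 0.09, adjusted p = 0.00679). The call held in all 13 alternative fits (adjusted p up to 0.0286). In the GENCODE M21 annotation (GRCm38), exons of Mlx overlap those of Psmc3ip on the opposite strand by up to 385 bases, and the strand setting of the counting is not given in the sources used here. Psmc3ip was at 25.7 ± 3.39 CPM in the LSK group and 21.4 ± 1.19 CPM in the GMP group (adjusted p = 0.150). The part of this overlap in the Mlx level was not tested.

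Among the repressors, Mxi1 was the one called member. It was at 60.5, 65.6 and 59.9 CPM in LSK-derived libraries, against 70.9, 81.6 and 88.4 CPM in the GMP group, with no overlap. The log2 fold change was -0.37 ± 0.10 (adjusted p = 0.0307), and the call was lost without LSK 44 (0.105), LSK 46 (0.111), GMP 11 (0.0806) or GMP 19 (0.0772), in a range from 0.00597 over its alternatives. Exons of Mxi1 overlap those of Gm10197, a gene that was not tested, on the opposite strand by up to 194 bases. The part of this overlap in the Mxi1 level was not tested.

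Mxd1, which marks maturing myeloid cells, was at 23.4, 32.3 and 31.2 CPM in LSK-derived libraries, against 25.5, 35.3 and 44.4 CPM in the GMP group (log2 fold change -0.27 ± 0.22, adjusted p = 0.399). Mxd3, the member tied to S phase, was low throughout, at 3.93, 4.79 and 4.83 CPM in the LSK group and 3.24, 5.67 and 8.21 CPM in the GMP group (log2 fold change -0.34 ± 0.33, adjusted p = 0.491). Both were highest in GMP 19, the library with the highest neutrophil marker sum (584 CPM, against 18.98 CPM in GMP 5 and 88.5 CPM in GMP 11), and that sum's part in these levels was not tested. Without GMP 19 the log2 fold change was -0.0667 for Mxd1 and 0.0196 for Mxd3. Exons of Mxd3 overlap those of Prelid1 on the opposite strand by up to 105 bases, and Prelid1, at 200 ± 8.04 CPM in the LSK group and 256 ± 10.5 CPM in the GMP group, was far more abundant (adjusted p = 0.0103). The part of this overlap in the Mxd3 level was not tested.

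Mxd4 was at 74.3, 118 and 89.1 CPM in LSK-derived libraries, against 84.6, 56.2 and 86.1 CPM in the GMP group (log2 fold change 0.31 ± 0.22, adjusted p = 0.349). LSK 45 stood high and GMP 11 low, and the groups overlapped. Exons of Mxd4 overlap those of Gm42846, a gene that was not tested, on the opposite strand by up to 353 bases. The part of this exon overlap in the Mxd4 level was not tested. Mnt, the repressor expressed in dividing and resting cells alike, was at 56.7, 59.0 and 58.8 CPM in LSK-derived libraries, against 40.9, 53.8 and 59.7 CPM in the GMP group (log2 fold change 0.18 ± 0.14, adjusted p = 0.381). Mga was at 165, 189 and 174 CPM in LSK-derived libraries, against 171, 161 and 148 CPM in the GMP group (log2 fold change 0.14 ± 0.08, adjusted p = 0.273). Max, Mxd1, Mxd3, Mxd4, Mnt and Mga were called in none of the 13 alternative fits, with adjusted p from 0.0967 upward. Single libraries moved their values: the log2 fold change of Mnt was 0.0290 without GMP 5 and 0.30 without GMP 19, that of Mxd4 was 0.11 without LSK 45 and 0.14 without GMP 11, and that of Mga was 0.0828 without LSK 45 and 0.0832 without GMP 19. Without GMP 5 that of Mxd1 was -0.46 and that of Mxd3 -0.62, and that of Mxd1 was -0.14 without LSK 44.

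**Figure D2:**
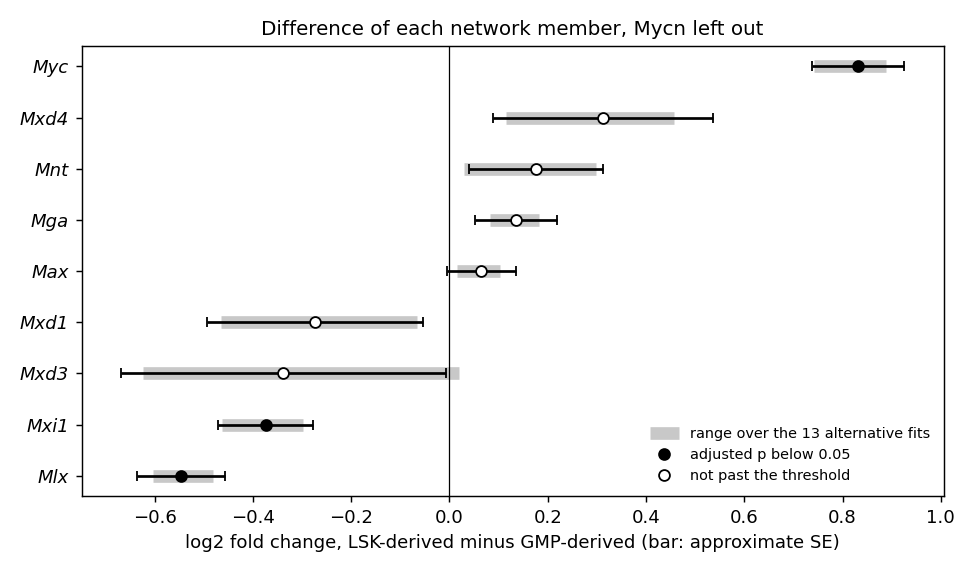
Log2 fold change of 9 members (horizontal axis, LSK-derived minus GMP-derived), with approximate SE as bars and the range over the 13 alternative fits in grey. Filled points passed an adjusted p of 0.05. Myc lies at 0.83 and Mlx at -0.55, while the range of Mxd3 crosses 0.

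Levels of different genes can be compared per length, so CPM were divided by the longest coding transcript of each gene in GENCODE M21. Myc was the most abundant member in both groups, at 136 ± 4.64 CPM per kilobase in LSK-derived and 76.2 ± 8.67 in GMP-derived libraries, followed by Max at 58.2 ± 1.24 and 55.6 ± 3.76. Next came Mlx, at 27.0 ± 2.17 CPM per kilobase in LSK-derived and 39.4 ± 2.79 in GMP-derived libraries, and then Mxd4, at 24.2 ± 5.73 and 19.5 ± 4.35. In LSK-derived libraries Mlx and Mxd4 did not differ beyond their spread, nor did Mnt (12.7 ± 0.270), Mga (12.6 ± 0.873) and Mxi1 (12.3 ± 0.628). In GMP-derived libraries Mxi1 was at 15.9 ± 1.76 CPM per kilobase, within the spread of Mxd4, and Mga (11.5 ± 0.844) and Mnt (11.2 ± 2.09) could not be ordered. Mxd1 was at 6.21 ± 1.04 CPM per kilobase in LSK-derived and 7.51 ± 2.03 in GMP-derived libraries, Mxd3 at 3.40 ± 0.382 and 4.2995 ± 1.87, and Mycn at no more than 4.83 in any library. With the median coding transcript as length, Mxi1 moved to the place after Max in both groups (41.6 CPM per kilobase in LSK-derived and 53.9 in GMP-derived libraries).

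Set side by side in each library, the activators differed between the groups, while the repressor sum did not differ beyond its spread. Myc and Mycn together were at 132, 139 and 143 CPM per kilobase in LSK 44, LSK 45 and LSK 46, against 80.3, 82.1 and 66.3 in GMP 5, GMP 11 and GMP 19. Mycn supplied 1.116%, 0.127% and 3.38% of that sum in LSK-derived libraries. The 6 genes Mxd1, Mxd3, Mxd4, Mxi1, Mnt and Mga summed to 71.5 ± 8.56 CPM per kilobase in LSK-derived and 70.0 ± 7.90 in GMP-derived libraries, a difference smaller than the spread. Their sum over that of Myc and Mycn was 0.481, 0.580 and 0.493 in LSK-derived libraries, against 0.810, 0.802 and 1.19 in GMP-derived libraries, with no overlap. As the repressor sums were alike, this ratio mainly restates the Myc difference given above and is no separate result. The ratio of Myc and Mycn to Max was 2.37 ± 0.0566 in LSK-derived and 1.37 ± 0.0880 in GMP-derived libraries, and that of Mlx to Max 0.464 ± 0.0449 and 0.709 ± 0.0665 in the same order. These ratios describe RNA and were not tested, since their parts had been chosen with the results known.

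**Figure D3:**
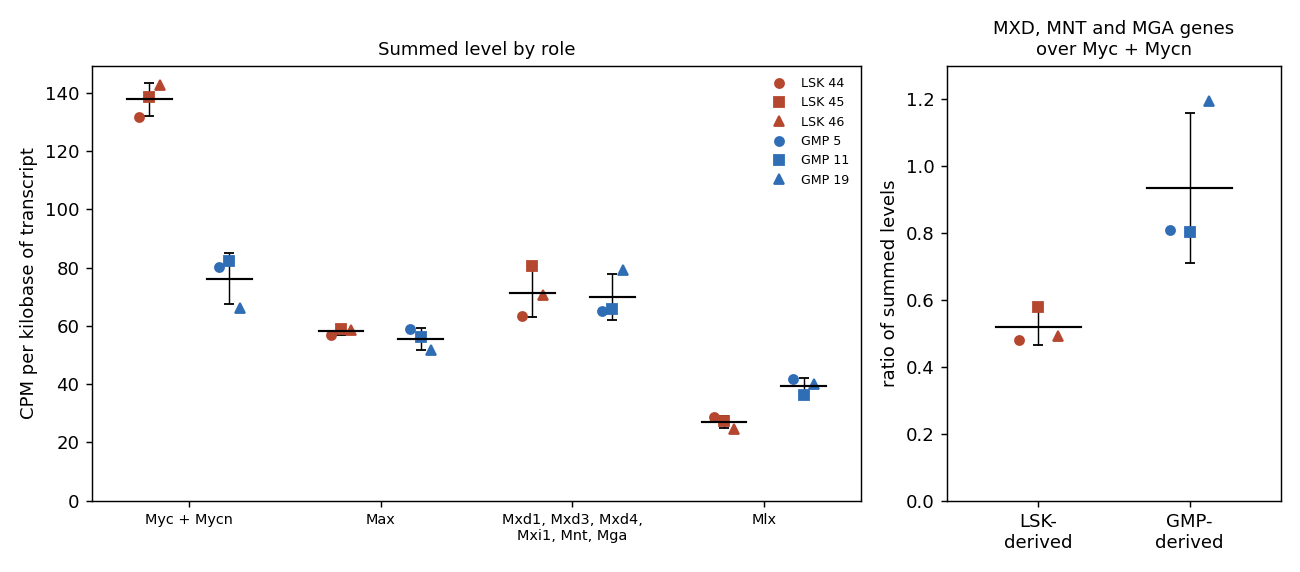
Left, summed CPM per kilobase of transcript by role, with LSK-derived libraries left of GMP-derived ones in each pair. Right, the sum of the MXD, MNT and MGA genes divided by that of Myc and Mycn. Points are libraries, lines means and bars SD (n = 3 each). The repressor sums overlap, and the ratio is below 0.6 in LSK-derived and at least 0.802 in GMP-derived libraries.

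Of 6 tested genes of the wider family, 3 were higher in LSK-derived libraries and 3 did not pass, beside 11.8% of all tested genes higher. The count was 2 to 3 over the alternatives. Bmyc, a rodent relative of Myc that lacks the DNA-binding domain, was at 1.89 ± 0.146 CPM in the LSK group and 0.235 ± 0.0502 CPM in the GMP group (log2 fold change 2.97 ± 0.27, adjusted p = 0.00104). Tcfap4, which encodes the E box factor AP4, was at 44.8 ± 2.86 CPM in the LSK group and 32.3 ± 2.10 CPM in the GMP group (log2 fold change 0.47 ± 0.09, adjusted p = 0.00990). Mlxipl, which encodes the MLX partner ChREBP, was low, at 1.27, 2.00 and 0.708 CPM in the LSK group and 0.287, 0.356 and 0.557 CPM in the GMP group (adjusted p = 0.0356). Its call was lost with limma voom, with sample weights and in every fit without a library but the one without LSK 46 (adjusted p 0.0503 to 0.102). Mlxip, the gene of the other MONDO protein, was at 108 ± 9.02 CPM in the LSK group and 94.9 ± 1.498 CPM in the GMP group and did not pass (adjusted p = 0.122), nor did the E box factor genes Usf1 and Usf2 (log2 fold changes 0.14 and -0.10, adjusted p = 0.312 and 0.489). Mycl1 was too low to be tested, with 4, 8 and 4 counts in LSK-derived and 0, 3 and 3 counts in GMP-derived libraries.

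Reported MYC target genes were more often higher than lower in LSK-derived libraries. Of 36 tested targets, 9 were called higher and 1 lower, and 26 missed the threshold, beside 11.8% of all tested genes higher and 13.9% lower. The median log2 fold change of the list was 0.25, and 31 of its genes had a positive value. The groups did not overlap in 18 genes with the LSK-derived libraries above (22.5% of all tested genes) and in 1 with them below (22.8%). Impdh2, a purine synthesis gene, was at 336, 292 and 323 CPM in LSK-derived libraries, against 233, 241 and 199 CPM in the GMP group (log2 fold change 0.50 ± 0.10, adjusted p = 0.0115).

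The nucleolar gene Mybbp1a was at 763 ± 70.7 CPM in the LSK group and 516 ± 61.5 CPM in the GMP group (adjusted p = 0.0121), and Fbl, which encodes the nucleolar methyltransferase fibrillarin, at 169 ± 11.5 and 127 ± 11.6 CPM in the same order (adjusted p = 0.0175). The other higher targets, named after their values were seen, were Polr1b, Paics, Ccnd2, Tert, Eif5a and Ppat. Among these Ccnd2, the cyclin D2 gene, stood apart, at 302, 273 and 271 CPM in LSK-derived libraries, against 66.8, 13.6 and 9.88 CPM in the GMP group (log2 fold change 3.24, adjusted p = 0.0272). Ldha, the lactate dehydrogenase gene, was the lower target, at 1304, 1420 and 1503 CPM in LSK-derived libraries, against 2091, 1852 and 1655 CPM in the GMP group (adjusted p = 0.0275). Odc1 and Cad, the classic E box targets, did not pass (adjusted p = 0.901 and 0.240).

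The count of higher targets depended on single libraries. It was 0 without LSK 44 in edgeR's test, with 9 at an unadjusted p below 0.05, and it was 2 without LSK 46, 4 without GMP 11, 3 without GMP 19, 8 without LSK 45 and 10 without GMP 5. It was 6 with no filter. DESeq2 called 13 higher, and limma voom with sample weights 14. Ldha lost its call without LSK 44, LSK 45, LSK 46 or GMP 11 (adjusted p 0.0607 to 0.102). The summed level of the targets was 18713 to 22047 CPM in the LSK group and 14742 to 18636 CPM in the GMP group. Over all libraries that sum was lowest in GMP 19, as was Myc. Within the LSK group the target sum was highest in LSK 44, where Myc was lowest, and lowest in LSK 45. Myc was at 324 CPM in LSK 45 and 323 CPM in LSK 46, too close to order. Abundant genes weigh most in the sum, such as Ncl (3474 CPM in LSK 44) and Npm1 (2930 CPM in LSK 44). A link of the sum to the Myc level was not tested. Of 15 proliferation markers, 1 was higher (Cdk1), 2 were lower (Mki67 and Ccne1) and 12 did not pass, beside 25.7% of all tested genes called.

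**Figure D4:**
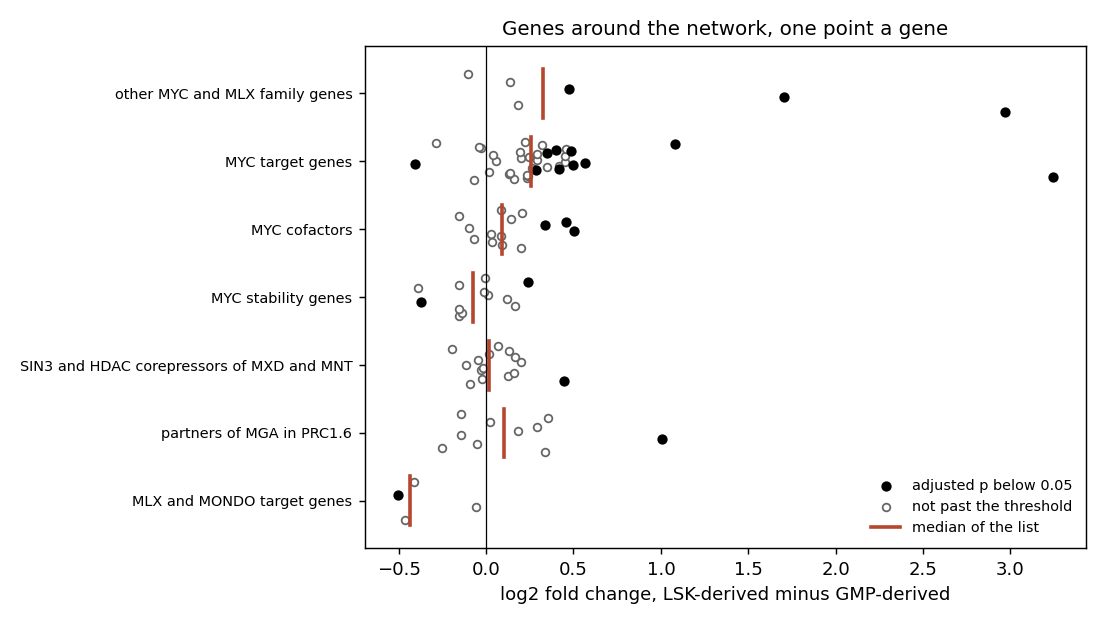
Log2 fold change (horizontal axis, LSK-derived minus GMP-derived) of the tested genes in 7 lists around the network, one point a gene, with vertical bars at the list medians. Filled points passed an adjusted p of 0.05. The median of the MYC targets is 0.25 and that of the 4 MLX and MONDO targets -0.44.

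Of 14 cofactors that MYC recruits, 3 were higher in LSK-derived libraries and 11 did not pass, beside 25.7% of all tested genes called and 11.8% higher. The count was 1 without LSK 44, LSK 46 or GMP 19, and at most 4 over the alternatives. Kat2a, the histone acetyltransferase GCN5, was at 131 ± 7.16 CPM in the LSK group and 92.8 ± 10.0 CPM in the GMP group (log2 fold change 0.50 ± 0.09, adjusted p = 0.0102). The ATPase genes Ruvbl2 (226 ± 20.2 CPM in the LSK group and 165 ± 21.8 CPM in the GMP group) and Ruvbl1 (117 ± 7.75 and 92.1 ± 8.61 CPM in the same order) each lost the call in 4 of the 6 fits without a library. Of 12 genes that govern the stability of MYC, 1 was called higher and 1 lower, beside 11.8% of all tested genes higher and 13.9% lower. Gsk3b, a kinase that marks MYC for degradation, was lower at 101 ± 4.597 CPM in the LSK group and 131 ± 1.90 CPM in the GMP group (log2 fold change -0.37 ± 0.06, adjusted p = 0.00718). Usp36, a nucleolar deubiquitinase gene, was 1.18-fold higher (adjusted p = 0.0445), a call lost in each fit without a library and with no filter (adjusted p up to 0.147). The other 10 did not pass, among them Fbxw7, the ubiquitin ligase gene for MYC, at 24.9, 24.1 and 25.6 CPM in the LSK group and 24.5, 20.5 and 21.6 CPM in the GMP group.

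On the repressor side, 1 of 15 SIN3 and histone deacetylase genes was higher and 14 did not pass, a share below that of all genes. It was Arid4b, named after its values were seen, at 64.7, 75.3 and 69.7 CPM in LSK-derived libraries, against 52.7, 52.3 and 49.3 CPM in the GMP group (adjusted p = 0.00940). Sin3a, at 168, 178 and 176 CPM in the LSK group and 161, 159 and 158 CPM in the GMP group, had an adjusted p of 0.150. The abundant histone chaperone genes Rbbp7 and Rbbp4 had adjusted p values of 0.126 and 0.256. Of 10 partners of MGA in its Polycomb complex, Pcgf6, the subunit that defines the complex, was higher, and 9 did not pass, beside 25.7% of all tested genes called. DESeq2 called 3 higher and 1 lower, limma voom with sample weights 4 higher and 1 lower, and the fit without GMP 5 called 3 higher. Pcgf6, also named after its values were seen, was at 38.0, 30.9 and 35.3 CPM in LSK-derived libraries, against 19.4, 18.4 and 14.2 CPM in the GMP group (log2 fold change 1.00 ± 0.14, adjusted p = 0.00422). Cbx3 (89.5 ± 5.30 CPM in the LSK group and 70.9 ± 9.24 CPM in the GMP group) and Tfdp1 (417 ± 38.0 and 410 ± 40.3 CPM in the same order) had adjusted p values of 0.0604 and 0.877.

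The 4 genes listed as responding to MLX and its MONDO partners had negative log2 fold changes, with a median of -0.44. Of these 1 was called lower, a share near that of all tested genes (25.7% called, 13.9% lower). Klf10, a zinc finger gene, was at 20.6, 20.0 and 23.8 CPM in LSK-derived libraries, against 28.7, 29.9 and 32.7 CPM in the GMP group (log2 fold change -0.50 ± 0.10, adjusted p = 0.0143), chosen after its values were seen. Txnip, the thioredoxin inhibitor gene used as a readout of MONDO activity, was at 66.8, 97.3 and 71.6 CPM in LSK-derived libraries, against 97.8, 102 and 115 CPM in the GMP group (adjusted p = 0.0848). LSK 45 came near the lowest GMP-derived library, and without it Txnip was called (adjusted p = 0.0107), as it was with DESeq2 and with sample weights, in a range up to 0.238 over its alternatives. Arrdc4, a gene of the same family as Txnip, was at 11.4 ± 1.54 CPM in the LSK group and 15.7 ± 1.45 CPM in the GMP group (adjusted p = 0.0503). Hk2, a hexokinase gene, was at 135 ± 6.27 CPM in the LSK group and 141 ± 1.17 CPM in the GMP group (adjusted p = 0.535). The number of the 4 genes called lower was between 0 (without LSK 44, with 2 at an unadjusted p below 0.05) and 3 over the alternatives; it was 3 with DESeq2, with sample weights and without LSK 45.

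Likeness to a member was measured as the root mean square difference of mean-centred log2(CPM + 1) over the 6 libraries, without regard to function. The genes nearest to Myc were Gnptab (0.05), which encodes an enzyme that tags lysosomal proteins, Poll (0.07), a DNA repair polymerase gene, and Reps1 (0.08), an endocytosis gene. Gnptab was at 272, 294 and 284 CPM in LSK-derived libraries, against 171, 157 and 139 CPM in the GMP group. Nearest to Mycn were Tarm1 (0.21), a myeloid receptor gene, Rbpms (0.27), an RNA-binding protein gene, and A930004D18Rik (0.30). Tarm1 was at 4.29, 1.02 and 11.1 CPM in LSK-derived libraries and no higher than 0.235 CPM in the GMP group. Mxd1 was most like Wbscr27, Camta2 and Ptger1 (0.08 to 0.09), of which Ptger1, a prostaglandin receptor gene, was at 48.5, 55.3 and 58.1 CPM in the LSK group and 51.6, 64.2 and 79.9 CPM in the GMP group.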

How the data were processed

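RNA from 6 libraries was sequenced after TRIzol extraction and TruSeq RNA library preparation, per the labels' protocols. The authors deposited 1 table of raw counts per gene symbol, with 1 column a library. The submitters' processing notes name mm9 as build, and HTSeq 0.6.1, STAR 2.4 and DESeq2 as tools, without roles. For the annotation and strand setting, nothing is given in the sources used here. Counts were filtered with filterByExpr, scaled by TMM and tested with edgeR 4.0.16 in R 4.3.3 (glmQLFit with robust estimation, glmQLFTest, 6 libraries, no covariate), with Benjamini-Hochberg adjustment over 13406 genes and a threshold of 0.05. The fit was checked on simulated counts. CPM are counts over the TMM-scaled library total of tested genes, and the approximate SE is the absolute log2 fold change over the square root of the F statistic. A count of 0 allows up to 3 counts, 0.0880 to 0.181 CPM by library, which covers counting error only. Libraries of a group differed beyond counting noise (chi-square per degree of freedom at least 10.5). The alternatives were RLE and upper-quartile scaling, no filter, DESeq2 1.42.0, limma 3.58.1 voom without and with sample weights, no robust estimation, and each library left out. Coordinates of sequences are those of RefSeq on GRCm38.p6 and of no deposited file. The members and gene lists were chosen with earlier results of these data known. Named genes are the members, 4 neighbours of Myc and Mycn, up to 3 called genes a direction by smallest p in each list (or the 2 most abundant where fewer than 2 were called), and the 3 genes most like Myc, Mycn and Mxd1. Any other gene named was chosen after its values were seen.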

Additional observations from a re-analysis of the deposited data

How the results depend on the processing

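No paired analysis was possible because the groups share no replicate number. Over 13 alternatives, Myc and Mlx were called in every fit. The number of members called higher was 1 with no filter, where Mycn was not called, and 1 to 2 in the fits without a library, as was the number called lower. Over all tested genes those fits called 770 to 1523 higher and 973 to 1944 lower, fewest without LSK 44 and LSK 46 (857 and 770 higher, 973 and 980 lower). Signs turned only in values that did not pass: Mxd3 at 0.0196 (fits without a library from -0.62) and Ddx1 at -0.0030 without GMP 19; Tfdp1 at -0.037 without LSK 44 and -0.0456 without GMP 19 (fits without a library up to 0.0928); Fam49a at 0.0052 with limma voom, 0.0642 with sample weights, 0.13 without LSK 44, 0.18 without LSK 46 and 0.36 without GMP 19 (fits without a library from -0.48). With the median coding transcript as length, CPM per kilobase in LSK-derived and GMP-derived libraries were 177 and 99.4 for Myc, 11.4 and 13.8 for Mxd1, 37.3 and 30.1 for Mxd4, 41.6 and 53.9 for Mxi1, 22.3 and 19.7 for Mnt, and 29.7 and 43.4 for Mlx. The ratio of the MXD, MNT and MGA sum to Myc and Mycn was then 0.721 in LSK-derived and 1.37 in GMP-derived libraries. The cause of the turned signs was not tested. Depth limits the values of Mycn, Bmyc, Mlxipl and Mycl1, which have fewer than 20 counts in every GMP-derived library.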
